A study of Mus musculus with 21 samples.

Results

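The 37 genes described here are genes of the enteric nervous system, the network of neurons and glia that lies within the wall of the gut. They were chosen by symbol, as pan-neuronal, synaptic, lineage, cholinergic, nitrergic, neuropeptide and channel genes, and all 37 have a row among the 24062 genes of the count table. Total RNA of mouse colon was depleted of ribosomal RNA and sequenced in 21 libraries, 3 in each of 7 groups of C57BL/6 mice. Wild-type males gave untreated normal colon and tumours after AOM/DSS, that is azoxymethane, a carcinogen, with dextran sulphate sodium, which injures the colon lining. App NL-G-F knock-in males gave the same pair of tissues, wild-type females gave both as well, and knock-in females gave untreated normal colon only. The App NL-G-F allele places Alzheimer's disease mutations in the mouse's own App gene, so it is not limited to neurons by a transgene promoter, and all knock-in groups carry it. The labels call every normal sample untreated, while the design text names tissue adjacent to cancers, or colon in which no tumour formed. Ages are not given in the sources used here. Nothing states that the 3 libraries of a group came from separate mice, so p-values measure the spread between libraries, which may be technical. The study set out to examine tumour formation after AOM/DSS in the App mutant background, by sex. The comparisons below share control libraries, so their values are set side by side and not taken as independent.

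Enteric neurons sit in plexuses between and beneath the muscle layers and drive motility, secretion and blood flow. Excitatory motor neurons make acetylcholine with tachykinins, the peptides encoded by Tac1, while inhibitory motor neurons make nitric oxide through Nos1 together with vasoactive intestinal peptide (Vip). Their precursors are neural crest cells that colonise the gut under the receptor Ret with its co-receptor Gfra1 and under the endothelin receptor Ednrb. Several of these genes are not particular to neurons: enteroendocrine cells, the hormone cells of the epithelium, also hold secretory granule genes and Tac1, and Ednrb is used by other stromal cells. These libraries are of whole tissue pieces, so fewer neurons and less RNA per neuron cannot be told apart.

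Library totals ran from 3414123 counts, in wild-type male tumour replicate 2, to 26174008. A value of 3 counts, taken as the floor of detection, equals 0.127 to 0.873 CPM, where CPM is the usual count scaled to library size, here with TMM-adjusted sizes. Of the 37 members, 32 had enough counts to be tested. Nefm, Phox2a, Chat, Slc18a3 and Nmu were not, and are given by their counts. All adjusted p-values are from edgeR's quasi-likelihood F test with Benjamini-Hochberg adjustment over 15936 genes, with a threshold of 0.05. Lists of 3 values follow replicates 1, 2 and 3, or 1, a and b in knock-in females, where 2 columns share a header.

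In normal colon the members were low-abundance transcripts. On the scale of CPM per kilobase of exon (RPKM), which allows genes to be compared, the highest mean levels in wild-type male normal colon were 4.0 ± 0.603 (SD, n = 3) for Penk, the enkephalin precursor, and 3.85 ± 0.565 for Ednrb. Hand2, a transcription factor of the enteric lineage, had 3.18 ± 1.60, and the granule protein gene Scg2 had 3.14 ± 0.592. These neighbours did not differ beyond their spread. In wild-type female normal colon the order began instead with Tac1 at 6.5 ± 1.71 and Vip at 4.82 ± 0.579. The lowest levels in wild-type male normal colon were 0.109 ± 0.0238 for Snap91, a vesicle recycling gene, and 0.0410 ± 0.0326 for the sodium channel gene Scn9a. The acetylcholine-synthesising enzyme gene Chat had only 0.13 ± 0.0117 there, and in wild-type female normal colon 1 library held all of its 26 counts.

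Most members were lower in AOM/DSS tumours than in normal colon, in males of both genotypes and in wild-type females. In wild-type males 19 of 32 tested members fell, against 19.3% of all tested genes, and 1 rose, against 16.5%. Knock-in males had 13 falls, against 9.97% of all genes, and 0 rises, against 10.4%. When only the compared groups entered the fit they had 5 calls in all, and 4.72% of all genes were called in place of 20.4%. Wild-type females had 22 falls, against 24.0% of all genes, and 1 rise, against 25.0%. The median log2 difference over the tested members was -1.64 for wild-type males, -1.32 for the knock-in and -1.89 for wild-type females, while the median of all genes was 0.01 in each. With members at 0 in a whole group set to their bound, the medians were -1.60 in wild-type males and -1.74 in wild-type females. Prph, Nefl, Snap25, Syp, Scg2, Scg3, Hand2, Gfra1 and Vip fell in each of the 3 comparisons. The summed level of all members overlapped in wild-type males, at 126 to 168 CPM in normal colon and 93.9 to 138 in tumours. It overlapped in knock-in males too, at 155 to 183 against 89.1 to 169, but not in wild-type females, at 155 to 186 against 94.9 to 121. In wild-type male tumours the mean sum was 117 CPM, of which Ret held a mean of 38.3 and Kcnb2 of 27.7. The rises were of Ret in wild-type females and of Kcnb2 in wild-type males. Tumour replicates 2 and 3 of wild-type females carry library numbers of 152 and above, as does knock-in male tumour replicate 3. With that as a covariate 15 members were called in wild-type females in place of 23. The share of all genes called went down as well, from 49.1% to 40%. The calls lost there were of Elavl3, Elavl4, Stmn2, Stmn3, Gap43, Hand2, Grp and Scn9a, with adjusted p from 0.0598 to 0.298.

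**Figure D1:**
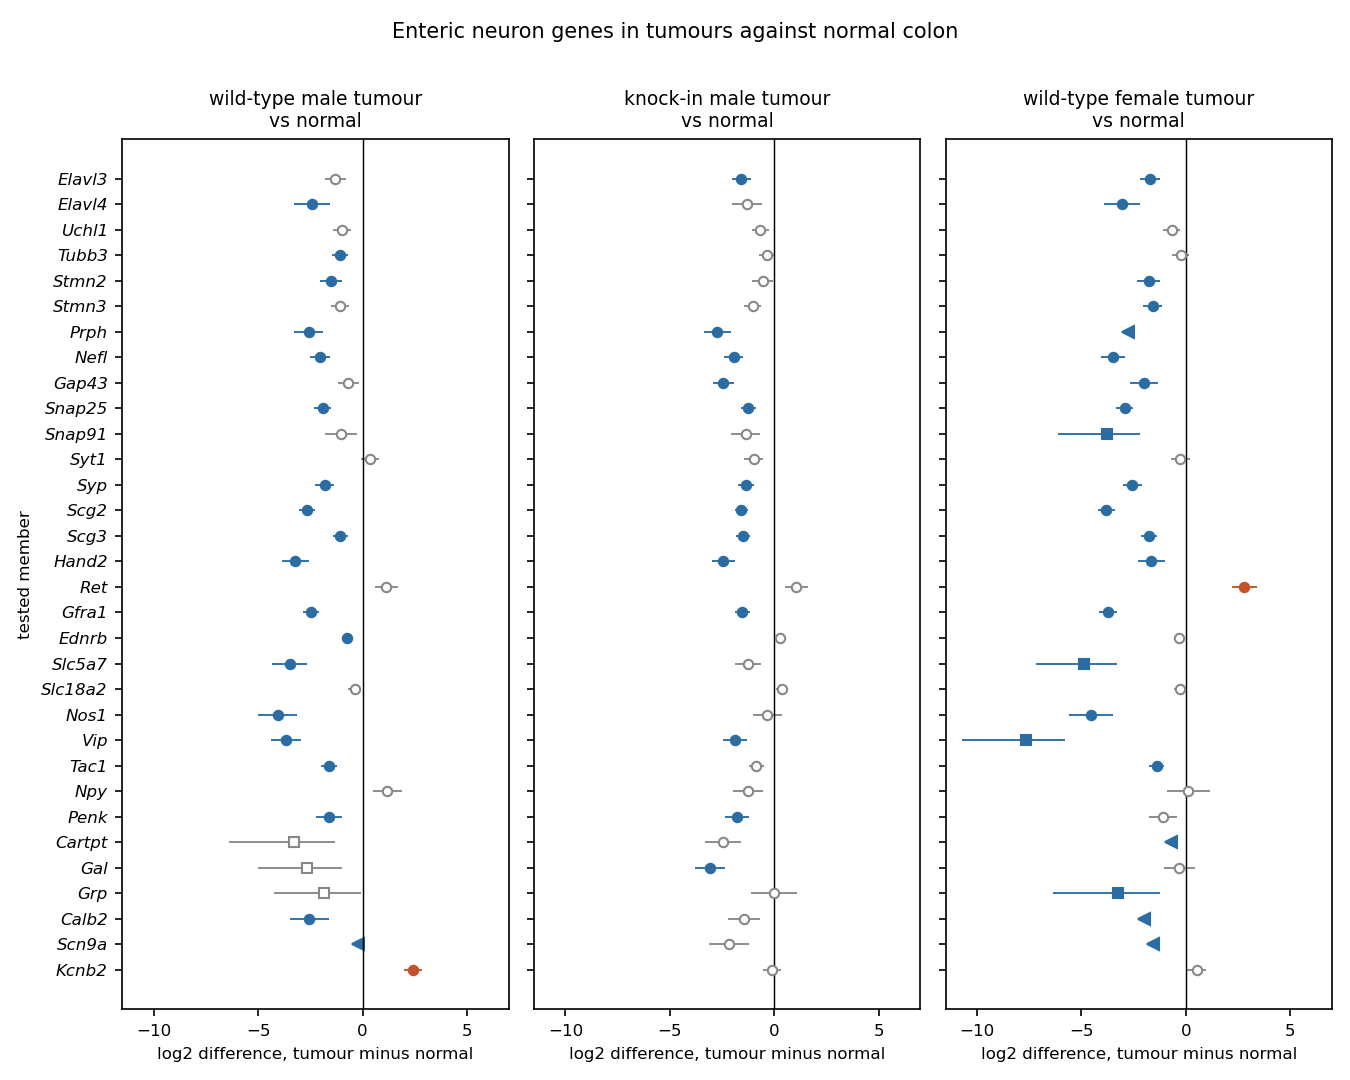
Log2 difference, tumour minus normal, of the 32 tested members in 3 comparisons, with 3 libraries in each group. Circles are fitted differences with their standard error, squares are count ratios with exact 95% intervals where a group held 1 to 3 counts, triangles are bounds against the floor of 3 counts where the tumour group was at 0, filled blue or orange marks passed the threshold and open grey marks did not. Most marks lie left of 0 in each panel, and the filled orange marks are Kcnb2 at 2.42 and Ret at 2.80.

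Some other cell types moved with this difference, as did the share of ribosomal RNA in the wild types. Counts of Rn45s, a ribosomal RNA precursor, took 4.90 to 8.26% of a library in wild-type male normal colon and 9.30 to 13.09% in the tumours, and 2.84 to 3.18% against 7.96 to 10% in wild-type females, while knock-in males overlapped with 6.59 to 14.08% against 6.95 to 8.23%. The summed level of 15 smooth muscle markers was 3430 to 11500 CPM in wild-type male normal colon and 365 to 1050 in the tumours, 5490 to 9590 and 1130 to 1340 in knock-in males, and 2350 to 5440 and 292 to 351 in wild-type females. All 15 fell in wild-type males, 12 in the knock-in and 15 in wild-type females. Of 13 tested enteric glia markers, 8, 4 and 4 fell and 1, 1 and 2 rose in the same order. Most of the summed glia level is Erbb3, which epithelium also expresses. The other 13 listed markers summed to 42.6 to 60.2 CPM against 26.4 to 29.6 in wild-type males, and overlapped between normal colon and tumours in the knock-in, at 42.1 to 50.7 against 34.1 to 47.3, and in wild-type females, at 29.6 to 55.1 against 22.6 to 29.9. Of 20 enteroendocrine markers, 13, 11 and 16 fell and 2, 0 and 1 rose. Fibroblast sums overlapped in males of both genotypes. They were higher in wild-type female tumours, at 2100 to 3120 CPM against 1410 to 1630, as were endothelial sums, at 188 to 322 against 91.9 to 126. Sums of Cajal and pacemaker cell markers were lower in wild-type tumours, at 554 to 638 against 1070 to 1330 in males. Epithelial sums were lower there too, at 6270 to 7580 against 10900 to 11800 in females. No smooth muscle marker was at 0 throughout a tumour group. The neurons lie between and beneath the muscle layers. How much of the gut wall the tumour pieces held was not tested. Nor was the part of these cell types or of ribosomal RNA in the members' falls.

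**Figure D2:**
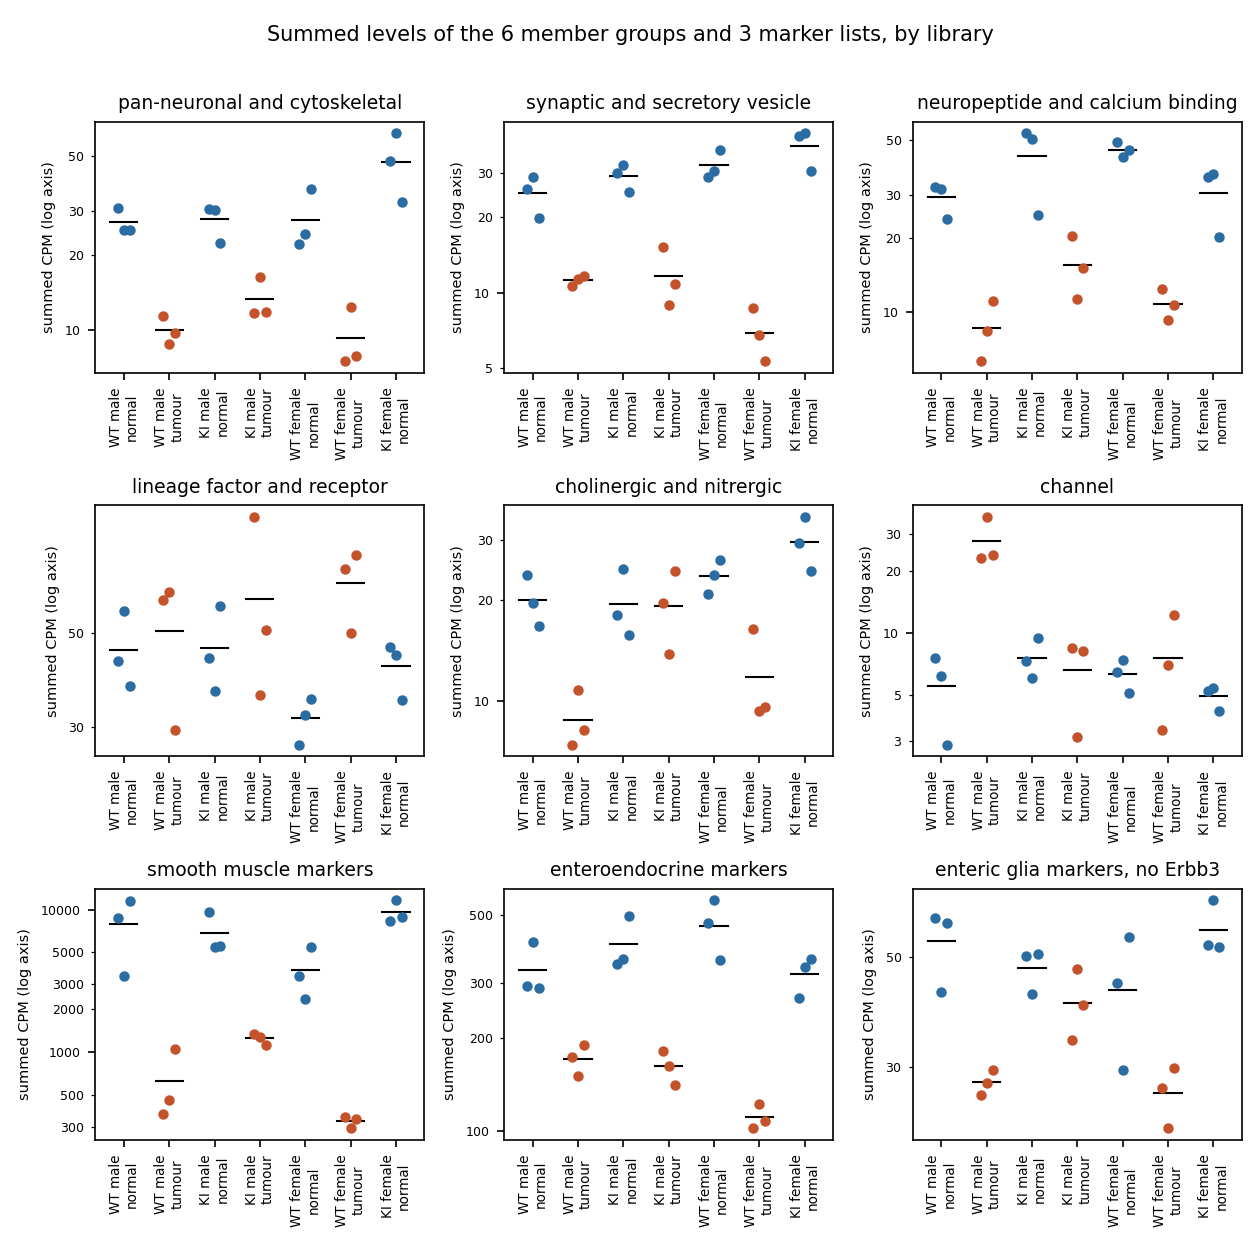
Summed CPM per library, on log axes, of the 6 groups of members (upper and middle rows) and 3 marker lists (lower row), with normal colon in blue, tumours in orange and bars for the mean of 3 libraries. The pan-neuronal, synaptic, smooth muscle and enteroendocrine sums are lower in every tumour library than in any normal library, whereas the lineage sum is higher in wild-type female tumours (49.9 to 75.8 against 27.3 to 35.0) and the channel sum in wild-type male tumours (22.9 to 36.4 against 2.89 to 7.61).

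Scg2, Vip, Nos1 and Tac1 fell in wild-type male tumours and were the 4 members called higher when knock-in male tumours were set against wild-type ones. These 4 of 32 tested members are a share near the 9.30% of all genes called higher there. Their promoter windows, 250 bases before to 50 after the RefSeq start on build GRCm38.p6, are shown because these 4 passed the threshold in that comparison. Of 14 alternatives, 12 ended the call of Tac1, 7 of Scg2, 5 of Vip and 3 of Nos1. Capitals mark TGACG, the core of the cyclic AMP response element, on either strand, where it reads CGTCA in the reverse direction.
Scg2, chr1:79439977-79440276 (- strand): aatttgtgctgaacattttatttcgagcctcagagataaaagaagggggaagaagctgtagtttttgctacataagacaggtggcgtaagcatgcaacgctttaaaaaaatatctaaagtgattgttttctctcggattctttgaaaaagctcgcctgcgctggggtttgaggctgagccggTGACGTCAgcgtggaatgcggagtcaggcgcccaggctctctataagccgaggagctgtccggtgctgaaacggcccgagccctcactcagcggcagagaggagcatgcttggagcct
Vip, chr10:5638968-5639267 (+ strand): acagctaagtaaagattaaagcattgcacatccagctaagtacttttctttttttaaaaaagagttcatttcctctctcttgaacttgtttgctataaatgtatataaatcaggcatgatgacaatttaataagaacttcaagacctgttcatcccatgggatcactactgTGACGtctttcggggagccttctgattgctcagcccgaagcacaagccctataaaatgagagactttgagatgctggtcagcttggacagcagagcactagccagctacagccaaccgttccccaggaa
Nos1, chr5:117866589-117866888 (+ strand): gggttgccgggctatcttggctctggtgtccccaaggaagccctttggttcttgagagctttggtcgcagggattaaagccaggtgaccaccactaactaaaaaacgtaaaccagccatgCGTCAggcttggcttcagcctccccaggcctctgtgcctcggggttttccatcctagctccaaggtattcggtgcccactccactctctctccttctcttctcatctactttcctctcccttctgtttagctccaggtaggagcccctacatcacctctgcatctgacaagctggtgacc
Tac1, chr6:7554811-7555110 (+ strand): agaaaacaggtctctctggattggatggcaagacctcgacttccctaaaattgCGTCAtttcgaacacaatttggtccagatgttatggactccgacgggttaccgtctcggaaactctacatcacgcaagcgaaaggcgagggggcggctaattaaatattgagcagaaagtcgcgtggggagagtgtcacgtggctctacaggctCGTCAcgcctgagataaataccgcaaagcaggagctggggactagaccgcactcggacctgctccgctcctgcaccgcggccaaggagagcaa
Scg2 holds the whole palindrome TGACGTCA, in which a TGACG on each strand overlaps, beginning 68 bases before the start. Vip holds TGACG 79 bases before the start. The RefSeq starts used lie inside the genes as GENCODE M21 draws them by 94 bases for Scg2, 182 for Tac1 and 85807 for Nos1, whose gene spans chr5:117781032-117958840 on GRCm38, and match for Vip. Windows were found for 27 of the 37 members, and 14 of these members hold TGACG. Of all 32851 windows, 20.8% hold it. TGACGTCA stands in 3 of the 27, Scg2, Cartpt and Slc18a2, and in 1.79% of all windows. The 27 members have 31 windows and were counted by gene, whereas the percentages are of windows. A gene with several windows has more chances of a match, so these figures cannot be compared directly. Of 8 motifs searched, TGACG and TGACGTCA were chosen for display after the matches were seen, and a match is a description of letters, not a binding site.

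Among pan-neuronal and cytoskeletal genes, which make neurofilaments, tubulin and RNA-binding proteins of the neuron, the summed level was 25.1 to 30.8 CPM in wild-type male normal colon and 8.73 to 11.4 in the tumours. In knock-in males it was 22.3 to 30.7 against 11.7 to 16.3, and in wild-type females 22.1 to 37.0 against 7.47 to 12.4. Of 9 tested genes of this group, 5 fell in wild-type males, 4 in the knock-in and 7 in wild-type females. Peripherin (Prph), an intermediate filament of peripheral neurons, had 3.4, 2.55 and 1.99 CPM in wild-type male normal colon and 0.504, 0 and 0.553 in the tumours. In wild-type females it had 1.44, 2.51 and 3.56 CPM in normal colon and no count in any tumour library. Knock-in males had 3.27, 4.37 and 2.16 CPM in normal colon and 1.02, 0.0592 and 0.392 in tumours. The normal and tumour values did not overlap in any of the 3 comparisons. Prph fell by 2.58 (SE 0.70) on the log2 scale in wild-type males (adjusted p = 0.00904) and by 2.73 (SE 0.65) in knock-in males (adjusted p = 0.00984). In wild-type females it was at least 6.92-fold lower (adjusted p = 0.000151), a bound set by 3 counts per library.

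Neurofilament light chain (Nefl) had 3.16, 3.29 and 2.29 CPM in wild-type male normal colon and 0.504, 1.46 and 0.553 in tumours, a fall of 2.04 (SE 0.49, adjusted p = 0.00368). In knock-in males its values were 4.86, 2.72 and 2.25 against 0.953, 0.710 and 0.881 CPM, and it fell by 1.94 (SE 0.45, adjusted p = 0.00745). The widest difference of Nefl was in wild-type females, with 2.49, 1.53 and 4.34 CPM in normal colon and 0.136, 0.351 and 0.217 in tumours (log2 difference -3.48, SE 0.57, adjusted p = 6.84e-05). Nefl overlaps Nefm on the other strand, and whether the counting used strand is not given in the sources used here. The RNA-binding protein gene Elavl4 had 1.78, 2.65 and 1.86 CPM in wild-type female normal colon and 0.136, 0.585 and 0 in tumours, a fall of 3.06 (SE 0.86, adjusted p = 0.00649). In wild-type males Elavl4 had 1.65, 1.05 and 1.59 against 0, 0.291 and 0.553 CPM, and fell by 2.42 (SE 0.86, adjusted p = 0.035). In knock-in males Elavl4 overlapped and was not called, with 1.4, 1.71 and 0.692 against 0.953, 0.355 and 0.196 CPM. Its paralog Elavl3 fell in knock-in males, from 2.34, 1.46 and 3.29 to 0.953, 0.947 and 0.392 CPM (log2 difference -1.57, SE 0.44, adjusted p = 0.0197). In wild-type females Elavl3 had 2.45, 1.53 and 2.32 against 0.543, 0.936 and 0.435 CPM (log2 difference -1.72, SE 0.48, adjusted p = 0.00635).

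The growth cone gene Gap43 fell in knock-in males, from 1.31, 1.65 and 1.47 to 0.544, 0.0592 and 0.196 CPM (log2 difference -2.43, SE 0.52, adjusted p = 0.00543). In wild-type females Gap43 had 0.507, 0.836 and 0.774 against 0.136, 0.234 and 0.109 CPM (log2 difference -2.0, SE 0.68, adjusted p = 0.0197). Stmn2, a microtubule regulator of growing axons, had 8.22, 4.12 and 8.66 CPM in wild-type male normal colon and 3.46, 1.75 and 1.75 in tumours (log2 difference -1.52, SE 0.54, adjusted p = 0.0339). In wild-type females Stmn2 had 4.95, 5.71 and 12.2 against 0.815, 2.46 and 3.15 CPM (log2 difference -1.78, SE 0.54, adjusted p = 0.0115). Its relative Stmn3 fell in wild-type females, from 1.90, 1.67 and 2.79 to 1.09, 0.819 and 0.217 CPM (log2 difference -1.59, SE 0.46, adjusted p = 0.00803). Neuronal tubulin Tubb3 had 3.68, 4.34 and 2.69 against 1.51, 1.46 and 2.03 CPM in wild-type males (log2 difference -1.08, SE 0.40, adjusted p = 0.0439). Uchl1, the neuronal ubiquitin hydrolase PGP9.5, passed in none of the 3, with log2 differences of -0.98, -0.67 and -0.68 in the order used above. It overlaps an antisense gene of the table, Uchl1os. Nefm held 7 to 12 counts in wild-type male normal libraries, 0 to 5 in the tumours, and 0 in each wild-type female tumour library.

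Some of these calls rest on few libraries. In wild-type males Elavl4 was lost without normal replicate 1 or 3 or tumour replicate 1 or 2 (adjusted p up to 0.165), and Stmn2 without normal replicate 1 or 3 or tumour replicate 2 or 3 (up to 0.125). Tubb3 was lost without any of these 6 libraries except normal replicate 3 (adjusted p up to 0.131). In wild-type females Stmn2 was lost without normal replicate 3 or tumour replicate 1 (adjusted p up to 0.0708) and Gap43 without tumour replicate 1 or 3 (up to 0.0725), and in knock-in males Elavl3 was lost without normal or tumour replicate 3 (up to 0.0991). With the library-number covariate, adjusted p in wild-type females was 0.0998 for Elavl3, 0.0852 for Elavl4, 0.0909 for Stmn3, 0.0598 for Stmn2 and 0.112 for Gap43. In a fit of the 2 groups alone, adjusted p in knock-in males was 0.0704 for Prph, 0.0688 for Gap43 and 0.0902 for Elavl3. Same-numbered libraries deviated together in the wild-type male comparison only, and the labels name no shared animal. With the replicate number as a block there, Elavl4 had an adjusted p of 0.0572 and Stmn2 of 0.0523.

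The 6 synaptic and secretory vesicle members were lower in sum in every tumour library than in normal colon. Their level was 19.9 to 28.8 CPM in wild-type male normal colon and 10.6 to 11.7 in tumours, 25.2 to 32.3 and 8.93 to 15.2 in knock-in males, and 29.0 to 36.9 and 5.33 to 8.69 in wild-type females. Of 6 genes, all tested, 4, 4 and 5 fell. The sum of the other listed vesicle genes, given further below, was higher in wild-type tumours. Scg2, secretogranin II of dense-core granules, had 6.75, 9.59 and 7.36 CPM in wild-type male normal colon and 0.936, 0.291 and 2.03 in tumours. In wild-type females it had 9.60, 9.06 and 10.2 against 0.679, 0.585 and 0.761 CPM. Knock-in males had 6.73, 11.8 and 6.48 in normal colon and 3.54, 2.90 and 1.96 in tumours. Normal and tumour libraries were apart in all 3, and the log2 differences were -2.68 (SE 0.38, adjusted p = 4.81e-05), -3.81 (SE 0.41, adjusted p = 1.07e-06) and -1.57 (SE 0.33, adjusted p = 0.00514) in that order.

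**Figure D3:**
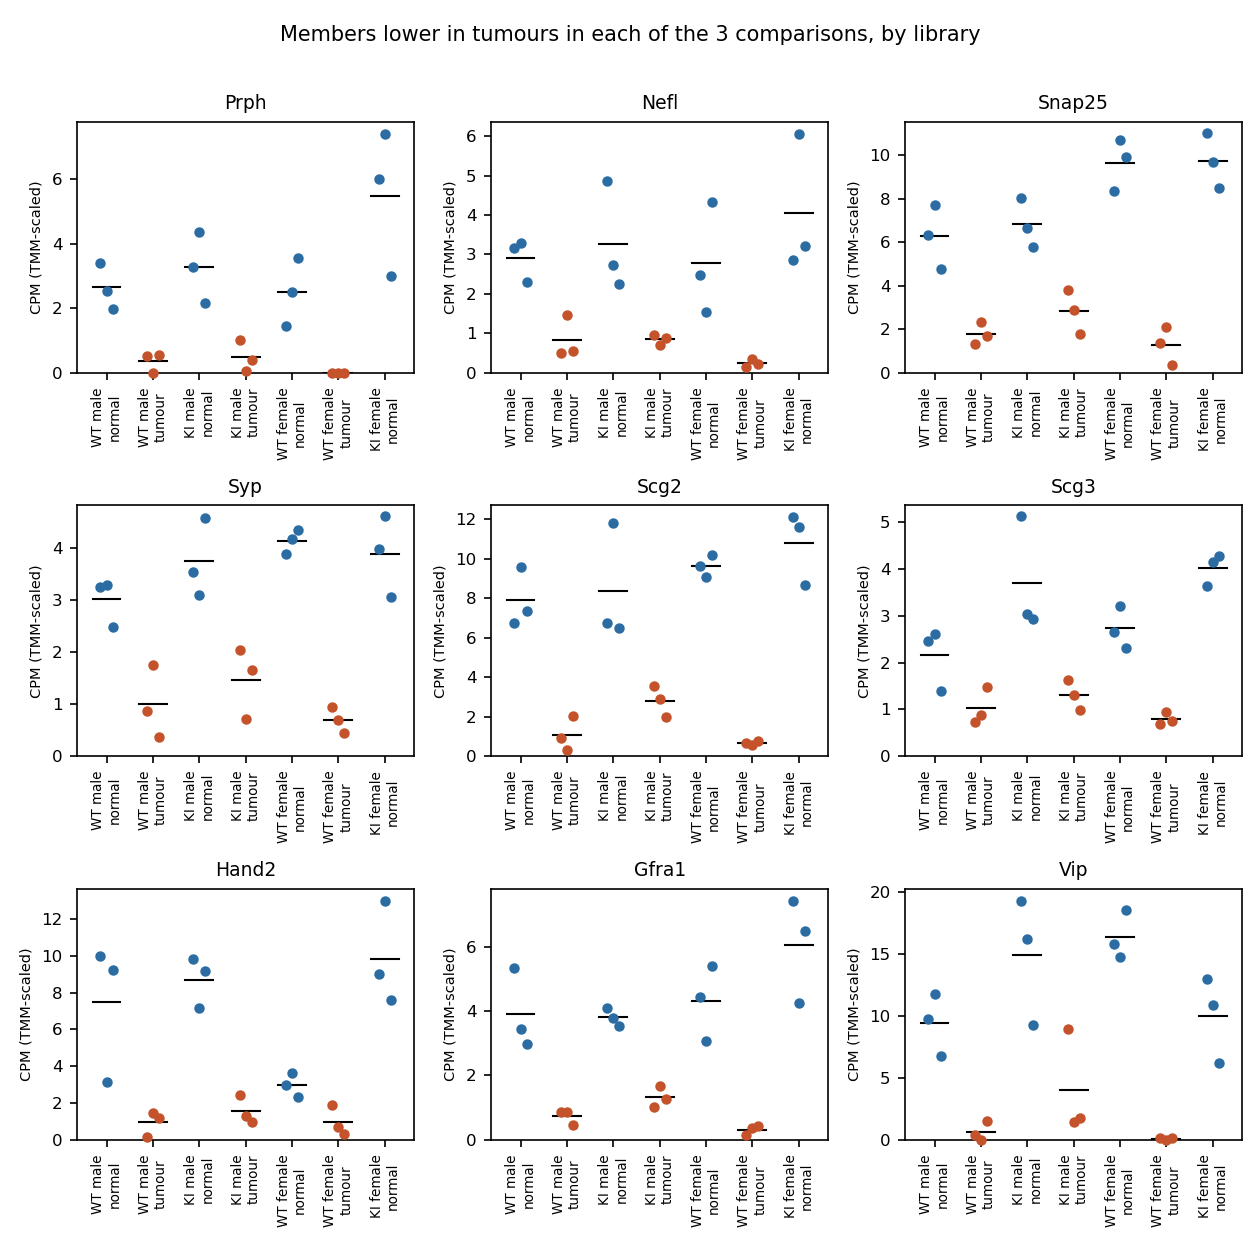
CPM per library, on linear axes from 0, of the 9 members that fell in each of the 3 tumour comparisons, with normal colon in blue, tumours in orange and bars for the mean of 3 libraries. Scg2 is at 6.48 to 12.1 CPM in the normal libraries and at 0.291 to 3.54 in the tumours, and knock-in male tumour replicate 1 holds the highest tumour value of Vip, 8.92 CPM.

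Snap25, a component of the vesicle fusion machinery, had 6.33, 7.71 and 4.78 CPM in wild-type male normal colon and 1.30, 2.33 and 1.66 in tumours (log2 difference -1.92, SE 0.40, adjusted p = 0.00132). Knock-in males had 8.04, 6.65 and 5.79 against 3.81, 2.90 and 1.76 CPM (log2 difference -1.25, SE 0.36, adjusted p = 0.0222). The values of Snap25 were farthest apart in wild-type females, with 8.33, 10.7 and 9.91 against 1.36, 2.11 and 0.326 CPM (log2 difference -2.93, SE 0.41, adjusted p = 1.43e-05). The vesicle membrane protein gene Syp had 3.26, 3.29 and 2.49 against 0.864, 1.75 and 0.368 CPM in wild-type males (log2 difference -1.82, SE 0.44, adjusted p = 0.00403). In knock-in males Syp had 3.55, 3.10 and 4.58 against 2.04, 0.710 and 1.66 CPM (log2 difference -1.35, SE 0.39, adjusted p = 0.0225), and in wild-type females 3.89, 4.18 and 4.34 against 0.951, 0.702 and 0.435 (log2 difference -2.57, SE 0.45, adjusted p = 0.000126). No tumour value of Syp reached a normal value of its own comparison. In knock-in males Snap25 was lost without normal replicate 1 or tumour replicate 2 or 3 (adjusted p up to 0.0781), and Syp without normal replicate 3 or tumour replicate 2 (up to 0.0906). In a fit of the 2 groups alone, adjusted p there was 0.0671 for Snap25, 0.103 for Syp and 0.0634 for Scg3.

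Scg3, a granin that helps to sort cargo into granules, had 2.46, 2.62 and 1.39 CPM in wild-type male normal colon and 0.720, 0.873 and 1.47 in tumours, which overlap (log2 difference -1.06, SE 0.36, adjusted p = 0.0268). This call was lost without normal replicate 1 or 2 or tumour replicate 1 or 2 (adjusted p up to 0.141), and with the replicate block its adjusted p was 0.0628. In knock-in males Scg3 had 5.14, 3.04 and 2.94 against 1.63, 1.30 and 0.979 CPM (log2 difference -1.48, SE 0.33, adjusted p = 0.00624). In wild-type females it had 2.66, 3.21 and 2.32 against 0.679, 0.936 and 0.761 CPM (log2 difference -1.77, SE 0.37, adjusted p = 0.000663). Snap91 had 1.52, 0.418 and 3.56 CPM in wild-type female normal colon and 0.272, 0 and 0.109 in tumours, which held 3 counts together. Its count ratio was 13.9-fold lower (exact 95% interval 4.55 to 69.3, adjusted p = 0.00236). The calcium sensor of vesicle release Syt1 passed in none of the 3, with log2 differences of 0.34, -0.98 and -0.26.

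Lineage genes did not move as a group. Gfra1 and the transcription factor gene Hand2 fell in all 3 comparisons, Ednrb passed the threshold downward in wild-type males, and Ret did not fall in any. Gfra1 had 5.34, 3.44 and 2.98 CPM in wild-type male normal colon and 0.864, 0.873 and 0.460 in tumours (log2 difference -2.46, SE 0.38, adjusted p = 0.000106). Knock-in males had 4.11, 3.80 and 3.54 against 1.02, 1.66 and 1.27 CPM (log2 difference -1.52, SE 0.34, adjusted p = 0.00589), and wild-type females 4.44, 3.07 and 5.42 against 0.136, 0.351 and 0.435 (log2 difference -3.73, SE 0.43, adjusted p = 2e-06). Gfra1 was thus low in every tumour library. Hand2 had 10, 3.15 and 9.25 CPM in wild-type male normal colon, with replicate 2 the lowest, and 0.144, 1.46 and 1.20 in tumours (log2 difference -3.23, SE 0.64, adjusted p = 0.000898). The same replicate 2 had the lowest smooth muscle sum of its group, 3430 CPM, and the part of other wall tissue in Hand2 was not tested. In knock-in males Hand2 had 9.81, 7.15 and 9.16 against 2.45, 1.30 and 0.979 CPM (log2 difference -2.44, SE 0.55, adjusted p = 0.00698). In wild-type females Hand2 was already low in normal colon, at 2.96, 3.62 and 2.32 CPM, and had 1.90, 0.702 and 0.326 in tumours (log2 difference -1.65, SE 0.63, adjusted p = 0.0373). That last call was lost without normal replicate 1 or 2 or tumour replicate 2 or 3 (adjusted p up to 0.154), and with the library-number covariate the difference was -0.92 (adjusted p = 0.298).

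Ret, the receptor tyrosine kinase of the lineage, ran the other way from its co-receptor gene Gfra1. In wild-type females it had 7.40, 7.53 and 6.97 CPM in normal colon and 54.3, 36.6 and 61.8 in tumours, a rise of 2.80 (SE 0.60, adjusted p = 0.00106). In wild-type males it had 13.2, 31.4 and 7.06 against 49.3, 45.7 and 19.8 CPM, which overlap (log2 difference 1.14, SE 0.55, adjusted p = 0.121). Knock-in males had 16.0, 11.9 and 32.2 against 70.8, 20.2 and 34.0 CPM (log2 difference 1.06, SE 0.54, adjusted p = 0.173). The difference of the tumour effect between wild-type females and males was 1.66 (SE 0.80, adjusted p = 0.374), so a difference between the sexes was not shown. Ednrb had 13.7, 17.7 and 17.9 CPM in wild-type male normal colon and 9.0, 13.7 and 7.83 in tumours (log2 difference -0.73, SE 0.21, adjusted p = 0.0122), a call lost without tumour replicate 1 or 3 (adjusted p up to 0.0754). Its log2 difference was 0.26 in the knock-in and -0.33 in wild-type females, neither past the threshold. Phox2a, a homeobox gene of the neuron precursors, held at most 14 counts in any library, and it overlaps Inppl1.

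The choline transporter and nitric oxide synthase genes fell in wild-type tumours of both sexes, and neither passed in knock-in males. Slc5a7, the high-affinity choline transporter that feeds acetylcholine synthesis, had 2.66, 3.90 and 6.19 CPM in wild-type female normal colon and 0, 0.351 and 0 in tumours. Its count ratio was 29.4-fold lower there (exact 95% interval 9.84 to 144, adjusted p = 8.65e-05). In wild-type males Slc5a7 had 2.36, 0.899 and 1.59 against 0.288, 0 and 0 CPM (log2 difference -3.50, SE 0.84, adjusted p = 0.00377). Knock-in males had 1.40, 2.47 and 0.605 against 0.544, 0.828 and 0.489 CPM, which overlap (log2 difference -1.25, SE 0.63, adjusted p = 0.161). Nos1, neuronal nitric oxide synthase, had 8.55, 7.26 and 5.57 CPM in wild-type male normal colon and 0.216, 0 and 0.829 in tumours (log2 difference -4.06, SE 0.93, adjusted p = 0.00306). In wild-type females Nos1 had 3.89, 5.57 and 5.11 against 0, 0.117 and 0.435 CPM (log2 difference -4.54, SE 1.06, adjusted p = 0.00199). Knock-in male tumours differed among themselves, with 2.38, 0.947 and 16.6 CPM against 8.22, 8.61 and 7.69 in normal colon (log2 difference -0.33, SE 0.69, adjusted p = 0.762). The value of replicate 3 lay above every normal library of that comparison and the other two tumours lay below them all. Chat held 0 to 2 counts in wild-type male tumour libraries and 0 in each wild-type female tumour library, and Slc18a3, the vesicular acetylcholine transporter gene nested in it on the same strand, held 0 to 5 in these 6. The vesicular monoamine transporter Slc18a2 passed in none of the 3, with log2 differences of -0.38, 0.37 and -0.28.

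Of the 8 tested neuropeptide and calcium-binding genes, 4 fell in wild-type males, 3 in the knock-in and 5 in wild-type females. In wild-type female normal colon Vip had 15.8, 14.8 and 18.6 CPM, and in tumours 0.136, 0 and 0.109, or 2 counts in all. The count ratio was 202-fold lower (exact 95% interval 55.7 to 1670, adjusted p = 1.06e-05). In wild-type males Vip had 9.78, 11.8 and 6.76 against 0.360, 0 and 1.47 CPM (log2 difference -3.68, SE 0.72, adjusted p = 0.000953). Knock-in males had 19.3, 16.2 and 9.25 against 8.92, 1.42 and 1.76 CPM, where tumour replicate 1 came close to the lowest normal library (log2 difference -1.87, SE 0.58, adjusted p = 0.0312). The knock-in call was lost without normal replicate 1 or 2 or tumour replicate 2 or 3 (adjusted p up to 0.0992), and its adjusted p was 0.166 with only the compared groups and 0.0889 with the library-number covariate.

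Tac1 had 27.9, 22.2 and 16.3 CPM in wild-type female normal colon and 9.92, 7.60 and 7.94 in tumours (log2 difference -1.39, SE 0.36, adjusted p = 0.00366). In wild-type males it had 10.9, 9.14 and 7.66 against 3.38, 2.91 and 2.76 CPM (log2 difference -1.60, SE 0.39, adjusted p = 0.00404), and in knock-in males 11.8, 21 and 5.27 against 5.31, 6.45 and 9.40 (log2 difference -0.86, SE 0.36, adjusted p = 0.089). Penk had 7.51, 5.54 and 6.57 CPM in wild-type male normal colon and 0.504, 1.75 and 4.14 in tumours (log2 difference -1.60, SE 0.61, adjusted p = 0.0478). It had 10.4, 5.89 and 4.5 against 3.13, 0.769 and 2.15 CPM in knock-in males (log2 difference -1.78, SE 0.59, adjusted p = 0.041). Both Penk calls were fragile: the first was lost without any of its libraries except tumour replicate 3 (adjusted p up to 0.185) and the second without any except tumour replicate 1 (up to 0.138) and with only the compared groups (0.088). With the library-number covariate their adjusted p was 0.0508 and 0.0992. In wild-type females Penk overlapped and was not called, with 1.94, 2.51 and 3.72 against 2.17, 0.468 and 1.09 CPM. Galanin (Gal) fell in knock-in males, from 4.21, 2.85 and 2.68 to 0.817, 0.177 and 0.0979 CPM (log2 difference -3.07, SE 0.71, adjusted p = 0.00746). In wild-type females Gal overlapped and was not called, with 1.06, 0.697 and 0.774 against 0, 1.05 and 0.979 CPM. In wild-type male normal colon Gal had only 0.661, 0.524 and 0.895 CPM, and the difference between the male genotypes in normal colon was not called (unadjusted p = 0.0034, adjusted p = 1).

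Calretinin (Calb2), a calcium-binding protein of many enteric neurons, had 0.761, 1.53 and 2.01 CPM in wild-type female normal colon and no count in the tumours, at least 3.97-fold lower (adjusted p = 0.00216). In wild-type males Calb2 had 1.94, 1.20 and 0.696 against 0, 0 and 0.553 CPM (log2 difference -2.56, SE 0.94, adjusted p = 0.0429), a call lost without normal replicate 1 or 2 or tumour replicate 1 or 2 (adjusted p up to 0.178). Cartpt, the CART peptide precursor, had 0.550, 0.139 and 1.08 CPM in wild-type female normal colon and no count in tumours, at least 1.63-fold lower (adjusted p = 0.0163). The gastrin-releasing peptide gene Grp held 2 counts in all in wild-type female tumours, a ratio 9.43-fold lower than normal (exact 95% interval 2.38 to 81.7, adjusted p = 0.0204). Grp had 0.507, 0.836 and 1.55 CPM in that normal colon and 0, 0.117 and 0.109 in tumours, and the call was lost without normal replicate 3 or tumour replicate 1 (adjusted p up to 0.0668) and with the library-number covariate (0.155). Npy passed in none of the 3, and was highest in wild-type male tumours at 1.87, 3.78 and 1.66 CPM. Nmu held no count in wild-type male tumours and 1 in wild-type female tumours, with 2 to 13 counts in normal libraries of all groups.

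The channel genes moved apart. Scn9a, a voltage-gated sodium channel of sensory and enteric neurons, held no count in any of the 6 wild-type tumour libraries. It had 0.898, 0.0749 and 0.597 CPM in wild-type male normal colon, at least 1.15-fold lower in tumours (adjusted p = 0.0226), and 0.761, 1.39 and 1.08 CPM in wild-type female normal colon, at least 2.99-fold lower (adjusted p = 0.0051). The male call was lost without normal replicate 1 or tumour replicate 1 or 3 (adjusted p up to 0.0828), the female call with the library-number covariate (0.0748), and the table holds a gene antisense to Scn9a. With the replicate block, adjusted p in wild-type males was 0.058 for Scn9a, 0.0824 for Calb2 and 0.0531 for Penk.

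Kcnb2, a delayed-rectifier potassium channel gene, was highest in the wild-type male tumours. It had 6.71, 6.14 and 2.29 CPM in wild-type male normal colon and 22.9, 36.4 and 23.8 in tumours, a rise of 2.42 (SE 0.44, adjusted p = 0.000507). Knock-in males had 6.82, 4.94 and 9.08 CPM in normal colon and 8.03, 3.14 and 8.22 in tumours (log2 difference -0.11, SE 0.43, adjusted p = 0.881). Wild-type females had 5.71, 5.99 and 4.03 against 3.4, 7.02 and 12.2 CPM (log2 difference 0.52, SE 0.45, adjusted p = 0.351). The tumour effect in knock-in males minus that in wild-type males was -2.53 (SE 0.62, adjusted p = 0.0481), where 0.370% of all genes were lower and Kcnb2 was the only member called. Between wild-type female and male tumours the difference was -1.85 (SE 0.44, adjusted p = 0.0518). The summed level of 11 tuft cell markers was also highest in wild-type male tumours, at 159 to 170 CPM against 51.5 to 82.8 in their normal colon, 52.6 to 98.2 in knock-in male tumours and 99.2 to 129 in wild-type female tumours. Most of that sum was Avil, which rose by 2.61 (SE 0.54, adjusted p = 0.00163) in wild-type males, while the tuft cell gene Dclk1 fell by 1.38 (SE 0.20, adjusted p = 5.43e-05) and Il25 was at 0 in all tumour groups. The part of these cells in the level of Kcnb2 was not tested.

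**Figure D4:**
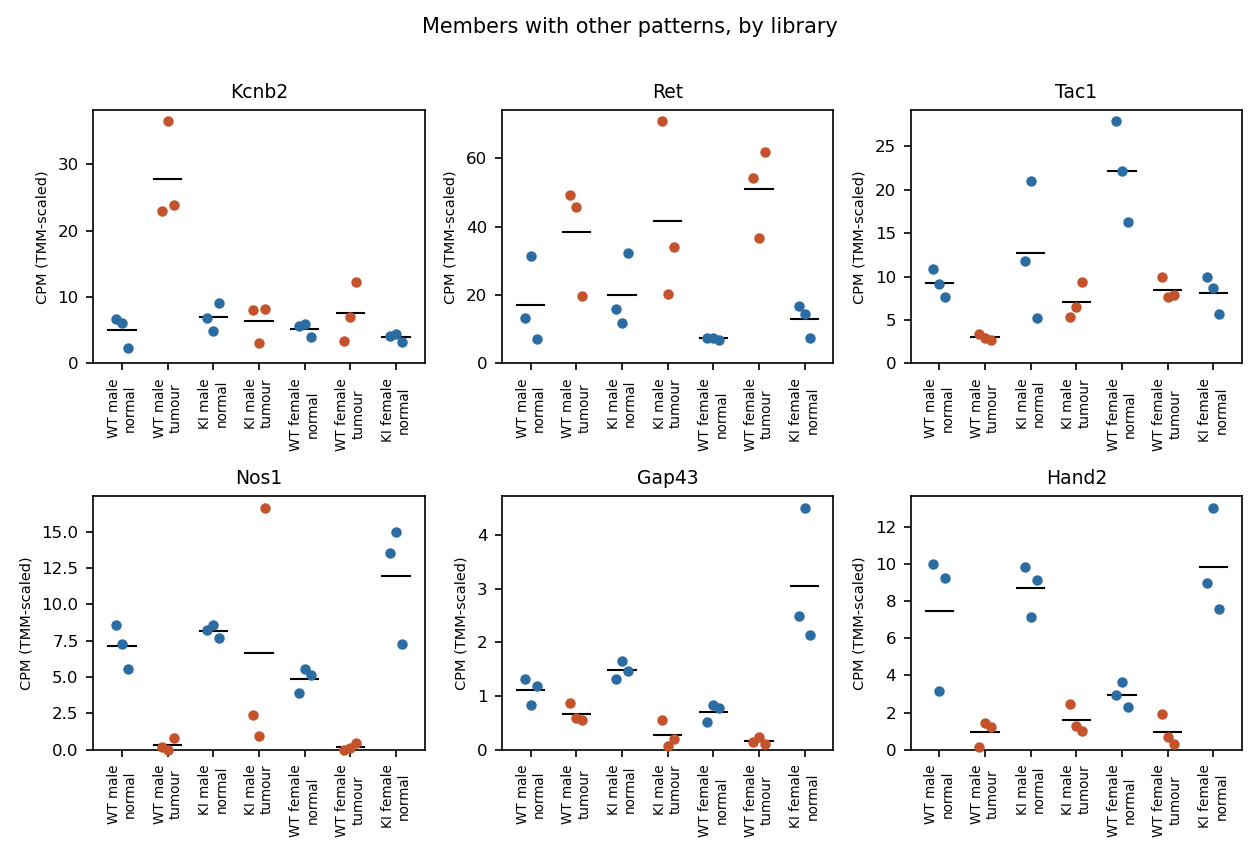
CPM per library, on linear axes from 0, of 6 members with other patterns, with normal colon in blue, tumours in orange and bars for the mean of 3 libraries. Kcnb2 is at 22.9 to 36.4 CPM in wild-type male tumours and at 12.2 or less elsewhere, Ret is high in most tumours, Tac1 is highest in wild-type female normal colon at 16.3 to 27.9, and 1 knock-in male tumour holds 16.6 CPM of Nos1.

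Knock-in male tumours were then compared with wild-type male tumours. Of 32 tested members 4 were higher, against 9.30% of all genes, and Kcnb2 was lower, against 5.23%, shares near those of all genes. The median log2 difference of the members was 0.66, or 0.60 with members at 0 set to their bound, beside 0.05 for all genes. Nos1 was higher by 3.92 (SE 0.94, adjusted p = 0.0155), from the 0.216, 0 and 0.829 CPM of wild-type tumours to 2.38, 0.947 and 16.6. Without knock-in replicate 3 the difference was 1.95 (adjusted p = 0.0503), and without wild-type replicate 1 it was 3.45 (adjusted p = 0.0751). Vip was higher by 2.46 (SE 0.73, adjusted p = 0.0345), and overlapped, since wild-type replicate 3 at 1.47 CPM exceeded knock-in replicate 2 at 1.42. Without knock-in replicate 1 the difference in Vip was 1.06 (adjusted p = 0.253). It was also lost without wild-type replicate 1 (log2 difference 1.98, adjusted p = 0.151) or 2 (2.19, adjusted p = 0.0801).

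Scg2 was higher in knock-in tumours by 1.20 (SE 0.38, adjusted p = 0.0428), with 1 pair of libraries overlapping, and Tac1 by 1.20 (SE 0.39, adjusted p = 0.0469), with none. The Scg2 call was lost without wild-type replicate 1 or 2 or knock-in replicate 1 or 2 (adjusted p up to 0.181). The Tac1 call was lost without any of the 6 libraries (adjusted p up to 0.147) and with the library-number covariate (0.0878). Kcnb2 was 4.27-fold lower (log2 difference -2.09, SE 0.44, adjusted p = 0.00903), the groups did not overlap, and the call held in all 14 alternatives. Smooth muscle markers were 1130 to 1340 CPM in knock-in against 365 to 1050 in wild-type tumours, and 1 of 15, Myocd, was higher by the test. The glia marker Erbb3 had 232 to 270 against 188 to 195 CPM (adjusted p = 0.118) and the other 13 glia markers summed to 34.1 to 47.3 against 26.4 to 29.6. Of 13 tested, 2 were higher, Cdh19, with 0.953, 0.532 and 0.783 against 0, 0 and 0.0921 CPM, and Sox10, by 3.13 (SE 1.01, adjusted p = 0.0457). The part of other wall tissue in the 4 higher members was not tested.

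In normal colon, knock-in males did not differ from wild-type males in any member by edgeR, where 0.0126% of all genes were called. By unadjusted p under 0.05 there were 2 members, Scg3 and Gal, and the share of all genes at that level is not given. The DESeq2 Wald test called 0 members, beside 0.0288% of all genes. Knock-in females were compared with wild-type females in the same way. There 2 members were higher, against 8.97% of all genes, and 1 was lower, against 7.0%, shares near those of all genes. Gap43 had 2.50, 4.5 and 2.14 CPM in knock-in females and 0.507, 0.836 and 0.774 in wild-type females, higher by 2.15 (SE 0.48, adjusted p = 0.00631). Hand2 had 8.99, 13.0 and 7.58 against 2.96, 3.62 and 2.32 CPM, higher by 1.72 (SE 0.54, adjusted p = 0.0363). Tac1 had 10, 8.66 and 5.74 against 27.9, 22.2 and 16.3 CPM, 2.73-fold lower (log2 difference -1.45, SE 0.36, adjusted p = 0.0111). The 3 members did not overlap between the groups. Without wild-type replicate 1, Gap43 had an adjusted p of 0.0547 and Tac1 of 0.0608, and Hand2 was lost without any of the 6 libraries except knock-in replicate b (adjusted p up to 0.142).

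The wild-type female normal libraries stood apart in other cell types too. Smooth muscle markers summed to 2350 to 5440 CPM there and 8280 to 11600 in knock-in females, with 7 of 15 higher in the knock-in. Endothelial markers summed to 91.9 to 126 against 234 to 262 CPM, with 8 of 10 higher, and enteroendocrine markers to 358 to 557 against 270 to 360, with 1 of 20 higher and Insl5 lower (log2 difference -1.96, SE 0.53, adjusted p = 0.0202). Rn45s took 4.85 to 5.96% of the knock-in female libraries, against 2.84 to 3.18%. The part of these in the differences of Gap43, Hand2 and Tac1 was not tested.

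Between the sexes, Tac1 was the only member called in wild-type normal colon, where 5.74% of all genes were higher in females. It was higher by 1.26 (SE 0.35, adjusted p = 0.0214) than the 10.9, 9.14 and 7.66 CPM of males, with no overlap. This was lost without any wild-type male library or without female replicate 1 or 2 (adjusted p up to 0.102). The knock-in effect on Tac1 in normal colon was -1.91 (SE 0.50, adjusted p = 0.0481) in females minus that in males, where 0.778% of all genes were lower and no other member was called. Female and male wild-type tumours differed in 0 members by edgeR, where 0.860% of all genes were called. There 9 had an unadjusted p under 0.05, and the DESeq2 Wald test called 2, beside 7.11% of all genes. Female and male knock-in normal colon differed in 0, against 0.584% of all genes. Of the members 6 had an unadjusted p under 0.05, and DESeq2 called 2, beside 3.63% of all genes. The tumour effect differed between wild-type females and males in 0 members, against 1.12% of all genes. Here 5 had an unadjusted p under 0.05, and DESeq2 called 0, beside 3.8% of all genes. The share of all genes at an unadjusted p under 0.05 is not given, so these counts are not read as differences of the members.

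Other genes of enteric neurons were counted on 5 lists with 111 genes, of which 95 were tested. In tumours 47 fell and 12 rose in wild-type males, 28 fell and 0 rose in the knock-in, and 45 fell and 17 rose in wild-type females, with median log2 differences of -1.04, -0.68 and -1.08. These lists, like the members, were chosen with earlier results of these data known, so their shares are a description and no independent support. The falls are 49.5%, 29.5% and 47.4% of the 95, each above the share of all genes given above. The rises in the wild types, 12.6% and 17.9%, lie below it. Summed over the 5 lists, wild-type male tumours were higher, at 2010 to 2120 CPM against 1520 to 1800 in normal colon. Wild-type females had 1580 to 1680 against 1390 to 1460 CPM, and knock-in males overlapped at 1480 to 1790 against 1600 to 1940. Transmitter and peptide genes were the list with no rise, with 12, 6 and 12 of 14 lower. In wild-type males the somatostatin gene Sst had 0.945, 3.44 and 1.79 CPM in normal colon and 0.072, 0.291 and 0.0921 in tumours (adjusted p = 0.00204). Which cells held Sst was not tested, and summed enteroendocrine markers were at 291 to 409 CPM against 150 to 190 in the same comparison. Gucy1a3, a subunit of the nitric oxide receptor that smooth muscle also makes, fell by 2.78 (SE 0.37, adjusted p = 3.25e-05). Among receptors and channels 10, 6 and 13 of 20 fell and 2, 0 and 1 rose, and the potassium channel gene Kcna1 fell by 5.19 (SE 0.71, adjusted p = 3.85e-05) in wild-type males. Of 20 transcription factors and lineage receptors, 12, 4 and 7 fell and 2, 0 and 5 rose, and Bnc2, a zinc finger gene, fell by 4.0 (SE 0.45, adjusted p = 1e-05) in wild-type males. Cytoskeletal and growth genes were divided, with 8, 3 and 7 of 18 lower and 4, 0 and 5 higher. So were synaptic vesicle and release genes, with 5, 9 and 6 of 23 lower and 4, 0 and 6 higher. Wild-type vesicle shares lie near those of all genes, 19.3% lower and 16.5% higher in males and 24.0% and 25.0% in females. The 25 listed vesicle genes summed to 292 to 452 CPM in wild-type male normal colon and 635 to 738 in tumours. Wild-type females had 300 to 352 against 523 to 584 CPM, and knock-in males overlapped at 344 to 515 against 381 to 532. Basp1, a growth-associated gene that other cells also express, rose by 2.28 (SE 0.52, adjusted p = 0.00318) in wild-type males. In knock-in against wild-type male tumours 13 of the 95 were higher and 2 lower, with a median of 0.40, or 13.7% higher beside 9.30% of all genes. In female normal colon 10 were higher and 1 lower in the knock-in, with a median of 0.34, and these 10.5% are near the 8.97% of all genes. Of these genes, Chga, Chgb and Gfra3 are also on the enteroendocrine list.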

How the data were processed

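The 37 members were found by symbol in the raw counts per gene that the authors deposited for 21 colon libraries. Per the submitters' processing notes, Trimmomatic, HISAT2, featureCounts and DESeq2 were used with build mm10, while annotation and strand setting are not given in the sources used here. Groups and replicate numbers are from the labels. In the knock-in female normal group 2 columns share a header and were used as unnumbered replicates a and b. Members and lists were chosen with earlier results of these data known.

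Library totals of 3414123 to 26174008 counts limit precision, and exact intervals and floors of 3 counts cover counting error only. The 21 libraries entered a single fit with edgeR 4.0.16 (R 4.3.3): TMM scaling, filterByExpr by group, robust quasi-likelihood, 1 coefficient per group, two-sided F tests for 9 pairs of groups and 3 interactions, Benjamini-Hochberg adjustment over 15936 genes, threshold 0.05. RPKM is CPM per kilobase of GENCODE M21 exons. Promoters are from RefSeq's GRCm38.p6 table, the same build. Members past the threshold in at least 1 comparison were given by role, with values mainly for the comparisons that they passed. Their values in other comparisons were not always given, and some of those overlap. Of other lists at most 3 genes with the largest change were named. Replicates differed beyond counting noise (lowest chi-square per degree of freedom 6.60). Same-numbered libraries deviated together only in wild-type male tumour against normal (correlations 0.17, 0.17 and 0.21). The numbers come from the labels, which name no shared animal. On simulated data for that comparison over 15936 genes the test recovered 68% of 200 changed genes with 5 false calls. The simulation changed far fewer genes than the 35.7% called in the data, so these figures do not carry over to the data. Alternatives were DESeq2 1.42.0 size factors, library totals, no filter, a stricter filter (mean count 50 or more), DESeq2's Wald test, only the compared groups, the replicate block on 18 numbered libraries, libraries numbered 152 and above as a covariate, and leaving out each library.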

Additional observations from a re-analysis of the deposited data

Results flagged for a closer look

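The tumour effect on Kcnb2 differed between male genotypes: knock-in minus wild-type it was -2.53 (SE 0.62, adjusted p = 0.0481, edgeR interaction). The gene was higher in 3 of 3 wild-type tumour libraries than in any wild-type normal library, while knock-in tumour and normal libraries overlapped. Over the 20 alternatives adjusted p ran from 0.00412 to 0.143 and 14 missed the threshold, among them the omission of any of 9 libraries.

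The genotype effect on Tac1 in normal colon differed between the sexes: in females minus males it was -1.91 (SE 0.50, adjusted p = 0.0481, edgeR interaction). Tac1 was lower in 3 of 3 knock-in female libraries than in any wild-type female library, and the male groups overlapped. Over the 19 alternatives adjusted p ran from 0.0106 to 0.152 and 15 missed the threshold, among them the omission of any of 10 libraries.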

How the results depend on the processing

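No direction reversed for any of the 67 called member and comparison pairs. The calls kept were 64 of 67 with DESeq2 size factors, 62 of 67 with library totals, 60 of 67 with no filter, 67 of 67 with the DESeq2 Wald test, 48 of 48 with a mean of at least 50 counts, 43 of 59 with only the compared groups and 53 of 67 with libraries numbered 152 and above as a covariate. Library totals moved the median of all genes to 0.15 in wild-type female tumours against normal. With the replicate block 52 of 63 pairs were kept. In the wild-type male comparison, where same-numbered libraries deviated together, 14 members were called with the replicate block in place of 20. The share of all genes called was 33.4% with it, in place of 35.7%. The block left 2 members between male tumours of the 2 genotypes, beside 11.6% of all genes, and 0 in their interaction, beside 0%. In these comparisons the libraries share only a number. With only the compared groups, the share of all genes called is given in brackets. There 5 members were called in knock-in male tumours against normal (4.72%), 1 between male tumours of the 2 genotypes (9.59%) and 5 between female normal groups (18.8%). Between the sexes 3 were called in wild-type tumours (8.1%), 2 in wild-type normal colon (10.9%) and 1 in knock-in normal colon (0.826%). The male interaction had 0 (0.00633%). In wild-type female tumours against normal the stricter filter gave 13, since fewer genes were tested, and the covariate 15. All genes called were 53.3% and 40% there. No filter gave 3 between male tumours, beside 8.75% of all genes. Between wild-type tumours of the sexes, library totals, the stricter filter and the covariate each gave 1, beside 1.26%, 2.06% and 1.05% of all genes. DESeq2 gave 2 there, beside 7.11%, and 2 for knock-in normal colon of the sexes, beside 3.63%. In the male interaction DESeq2 gave 3, beside 9.75% of all genes, and size factors, no filter and the covariate gave 0. In the interaction on normal colon size factors, library totals, no filter and the covariate gave 0. The cause of these differences was not tested.

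Leaving out 1 library gave 13 to 18 called members in wild-type male tumours against normal, beside 22.4 to 33.1% of all genes. It gave 9 to 15 in knock-in males, beside 8.6 to 18.5%, and 21 to 24 in wild-type females, beside 41 to 44.9%. Between male tumours of the genotypes it gave 1 to 4 (1 without wild-type replicate 1), beside 2.65 to 13.8%. Between female normal groups it gave 0 to 5 (0 without wild-type replicate 1, 5 without knock-in replicate b), beside 6.27 to 16.8%. It gave 0 to 2 between wild-type normal colon of the sexes, beside 6.36 to 17.1%, and 0 to 1 in the 2 interactions with a call. Depth limits members at a few counts: a value of 3 counts is 0.873 CPM in the shallowest library.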
